A study of Mus musculus with 280 samples.

Results

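The 82 single mouse embryos collected at the 4-cell stage were ranked by a plate-centred score of RNA from 4 genes that the oocyte makes. The 27 embryos with the highest scores were compared with the 27 with the lowest. For each embryo, log2(TPM + 1) was averaged over Obox5, Btg4, Bmp15 and Bcl2l10. The score was this average minus its mean over the 4-cell embryos on the same plate, so embryos were ranked relative to their plate. The only plate 8 embryo thus scored 0 and fell in the middle, although its uncentred average (6.67) was the highest of the 82. A low-score plate 6 embryo (4.72) had a higher uncentred average than a high-score plate 5 embryo (4.52). Plate is the plate number in the library name. TPM is a length-adjusted, depth-scaled share of an embryo's sequenced RNA. The 28 embryos with middle scores were left out of the comparison, and the whole series holds 280 embryos. The groups were therefore defined by measured transcripts and not by a treatment. A single collection time gives a level, so no rate of loss was measured.

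All embryos were of the FVB inbred strain and came from in vitro fertilization of oocytes from females on control diet, and they were cultured in KSOM medium. Sires had been fed either a control diet (42 of the 4-cell embryos, here Control) or a low protein diet (40 embryos, Low Protein). Each library is a whole embryo prepared with a single-cell kit and Nextera tagmentation, so fewer cells holding a transcript and less transcript per cell cannot be told apart. The high-score group held 16 Control and 11 Low Protein embryos, and so did the low-score group. The 82 embryos came from 17 oocyte donors and 19 sire identifiers on 8 plates. Of these, 12 donors, 11 sires and 7 plates gave embryos to both groups. An age entry in the deposited data runs from 5 to 10 weeks for these embryos, and its heading does not say which animal it describes. Embryos sharing a donor or sire were treated as separate samples, so the p-values measure the spread between embryos.

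A mouse oocyte stores messenger RNA for the first divisions, and most of that store is degraded around the 2-cell stage as the embryo's own genome becomes active. Removal works largely by shortening the poly(A) tail. Btg4 encodes an adaptor that brings the CCR4-NOT deadenylase to maternal messages. Bmp15 encodes a growth factor secreted by the oocyte, Bcl2l10 an oocyte-abundant member of the BCL2 family, and Obox5 a homeobox protein of a family expressed in oocytes and early embryos. By the 4-cell stage such messages are remnants of the earlier store.

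Obox5 is 1 of several near copies on chromosome 7, and this bears on every Obox value below. The RefSeq promoter windows (250 bases before to 50 after the gene start, GRCm38.p6, plus strand) are shown for Obox5 at chr7:15750120-15750419 and for Obox1, the copy that went most strongly with the score, at chr7:15547007-15547306. Capitals mark matches to CANNTG, the E-box core bound by basic helix-loop-helix factors.
Obox5: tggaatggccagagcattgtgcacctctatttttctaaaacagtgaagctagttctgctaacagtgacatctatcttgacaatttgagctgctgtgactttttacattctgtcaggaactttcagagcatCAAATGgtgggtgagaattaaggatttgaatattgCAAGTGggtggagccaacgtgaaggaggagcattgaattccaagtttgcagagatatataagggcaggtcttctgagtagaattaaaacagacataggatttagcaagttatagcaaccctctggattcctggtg
Obox1: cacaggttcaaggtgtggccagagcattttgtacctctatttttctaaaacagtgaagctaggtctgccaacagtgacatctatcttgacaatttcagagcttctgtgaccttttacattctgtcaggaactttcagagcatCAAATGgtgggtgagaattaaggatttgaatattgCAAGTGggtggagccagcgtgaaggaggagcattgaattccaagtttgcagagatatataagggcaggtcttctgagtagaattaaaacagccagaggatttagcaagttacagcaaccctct
The aligned windows were identical at 275 of 288 positions (95.5%), with both E-box matches shared. The longest GENCODE transcripts of Obox1 and Obox5 were identical at 93.1% of aligned positions, and those of Obox1 and Obox2 at 99.2%. How the authors assigned reads among such copies is not given in the sources used here, so the levels of single Obox genes are uncertain. Both strands were searched, and matches of different motifs may share letters. A CANNTG match was present in 72.3% of all 32851 promoter windows in the RefSeq table, in 63.6% of the windows of genes tested here and in 69.8% of the windows of genes higher in high-score embryos. The related motif TAATTG, a homeobox-type core, was in 8.00%, 4.82% and 7.94% of the same windows. Both shares among the higher genes (20 of 252 windows for TAATTG) were above those of the tested genes, from which the higher genes come. They were below those of all windows. These differences were not tested.

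Scores ran from -1.96 to 1.99 with an SD of 0.86 log2 units. They formed a continuum: the last embryo inside the high-score group stood at 0.222 and the next below it at 0.209, and the last inside the low-score group stood at -0.432 and the next above it at -0.412. High-score embryos occurred on 7 plates and in embryos of both diets, as the plot of scores by plate shows.

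**Figure D1:**
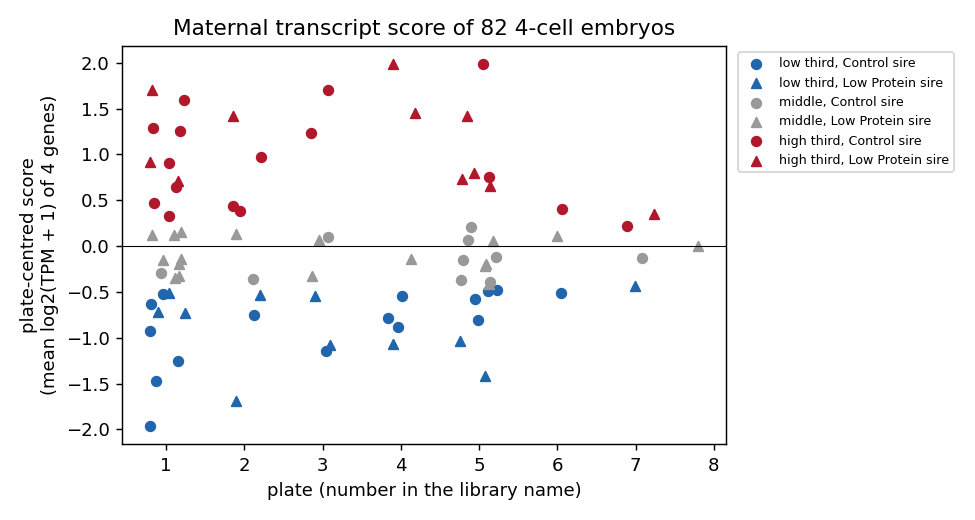
Plate-centred score of each of the 82 4-cell embryos (vertical axis, log2 units) by plate number in the library name (horizontal axis, points spread sideways within a plate). Red points are the 27 high-score, blue the 27 low-score and grey the 28 middle embryos; circles have Control and triangles Low Protein sires. Both colours occur on each plate from 1 to 7, and plate 8 holds 1 embryo.

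The 4 score genes chose the groups, so their levels there are a description. Bcl2l10 was at 9.14 to 258 TPM with a median of 49.9 in high-score embryos, and at 0 to 28.2 TPM with a median of 9.85 in low-score embryos. Bmp15 had medians of 26.3 and 4.84 TPM, Btg4 of 78 and 27.6 TPM, and Obox5 of 55.1 and 17.6 TPM. The groups overlapped for each of the 4 genes. These levels were small remnants even in high-score embryos, since mean Btg4 was 11219 TPM in the 80 2-cell embryos, 84.5 ± 49 TPM (SD, n = 27) in high-score and 32 ± 19.2 TPM (SD, n = 27) in low-score 4-cell embryos, and 1.52 TPM in the 73 morulae.

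When the groups were cut again on the other 3 genes, the left-out gene could be tested. Bcl2l10 was higher by 1.81 ± 0.34 log2 units (SE, adjusted p = 0.00121), Bmp15 by 1.62 ± 0.27 (SE, adjusted p = 9.03e-05) and Btg4 by 1.05 ± 0.25 (SE, adjusted p = 0.0179). Obox5 differed by 0.70 ± 0.30 (SE) and did not pass (adjusted p = 0.213). Across the 82 embryos, Pearson's r between pairs of score genes after removing plate means ran from 0.25 for Obox5 and Btg4 to 0.70 for Bmp15 and Bcl2l10, values that share library and plate.

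Many other oocyte transcripts went with the score. Of 9825 genes tested, which leaves the score genes out, 277 were higher (2.82%) and 49 were lower (0.499%) in high-score embryos at an adjusted p under 0.05 (limma with plate as covariate). A further view without adjustment counted 1522 higher and 471 lower genes at p under 0.05. Differences were positive for 6164 of the 9825 genes. The median gene was higher by 0.11 log2 units, and after quantile normalization, which set that median to -0.01, the counts were 129 higher and 106 lower, so the balance of directions depends on the scaling. Without plate 1, which holds 19 of the 54 embryos, 39 genes were higher and 6 lower.

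Zbed3, reported as a partner of the subcortical maternal complex, led the list (chr13:95323612-95337841, plus strand). It was at 50.6 to 311 TPM with a median of 128 in high-score embryos, and at 6.98 to 91.8 TPM with a median of 21.9 in low-score embryos. Of the 27 high-score embryos, 23 lay above the highest low-score embryo, and the middle embryos had a median of 48.7 TPM. The difference was 2.61 ± 0.22 log2 units (SE, adjusted p = 6.27e-13), in the same direction on 6 of the 7 plates with both groups. Within plate its r with the score over 82 embryos was 0.88, which shares library and plate.

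H1foo encodes the linker histone of the oocyte (chr6:115944938-115950236, plus strand). It was at 7.40 to 376 TPM with a median of 74.9 in high-score embryos, and at 0 to 118 TPM with a median of 13.3 in low-score embryos. The groups overlapped broadly, yet 25 of 27 high-score embryos exceeded the low-score median. The difference was 2.33 ± 0.36 log2 units (SE, adjusted p = 2.47e-05), in the same direction on 7 of 7 plates.

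The other genes among the 12 with the largest increases were Tsga8, Gm1965, Rfpl4, E330034G19Rik, Zar1, Obox1, E330021D16Rik, Oog3, Usp17lb and Ooep, at 1.86 to 2.25 log2 units. E330034G19Rik separated the groups almost as cleanly as Zbed3, with medians of 49.7 and 11 TPM and 22 high-score embryos above every low-score embryo. Tsga8 was different in kind, with a median of 10.7 TPM and a highest value of 462 TPM in high-score embryos against a median of 0 in low-score embryos, so a few embryos held most of its total. Usp17lb, a deubiquitinase gene with close copies, had the same shape, at a median of 3.92 and a highest value of 1679 TPM. All 12 genes stayed positive under each alternative tried. By plate, Zar1 and E330021D16Rik were positive on 5 of the 7 plates with both groups, and the others of the 12 on 6 or 7. Without plate 1, Tsga8 (2.04), Zar1 (1.51), Usp17lb (2.03) and Ooep (1.81) no longer passed, and Usp17lb (1.78) also failed without the embryo that had the fewest genes.

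**Figure D2:**
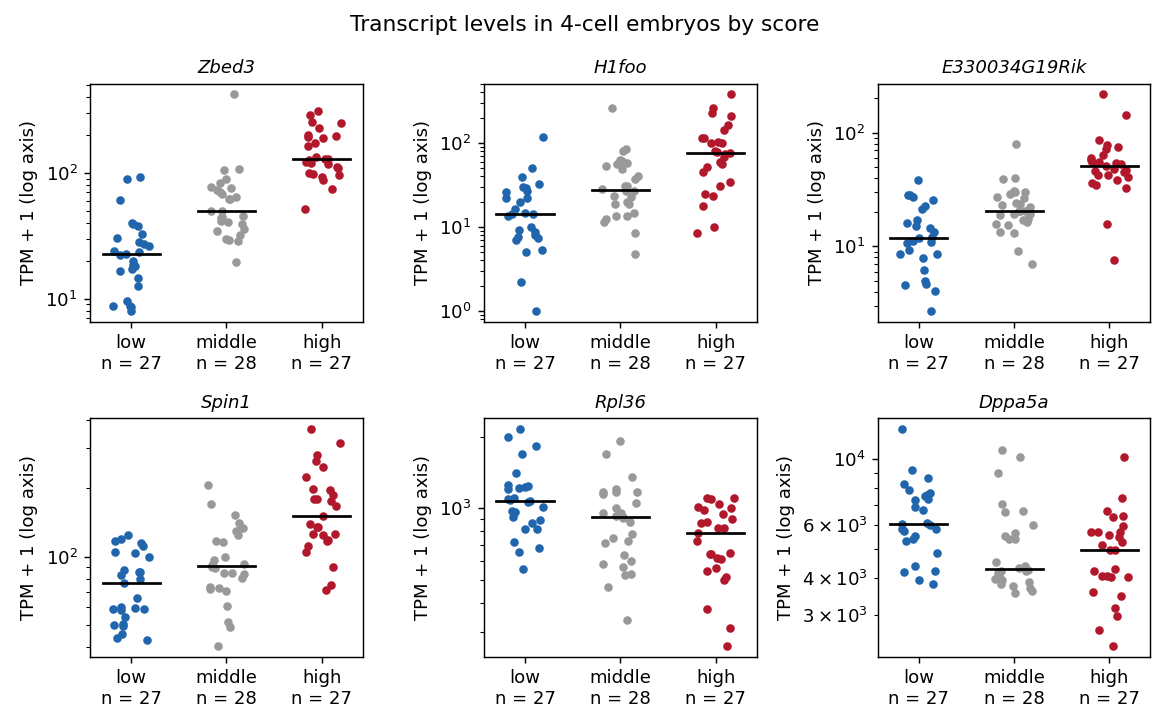
TPM + 1 on a log axis for 6 genes in low-score (27, blue), middle (28, grey) and high-score (27, red) 4-cell embryos; each point is an embryo and the black line is the median. Median Zbed3, H1foo, E330034G19Rik and Spin1 rise from low to high, median Rpl36 falls from 1070 to 787 TPM, and Dppa5a does not pass the test.

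In a list of oocyte growth factors, zona and follicle factors, 14 of 14 tested genes had positive differences, against 6164 of all 9825 tested. Their median difference was 0.81 log2 units against 0.11 over all genes tested. The 3 that passed were Fbxw24, Fbxw15 and Nlrp14, which the list also holds, and no growth factor or zona gene passed. Fbxw24, an F-box gene, had medians of 75.5 and 38.3 TPM and was higher by 1.00 ± 0.17 (SE, adjusted p = 0.000161). The related Fbxw15 was higher by 1.36, and Nlrp14, an NLR-family gene of the oocyte, by 0.81. Gdf9, the oocyte growth factor that pairs with Bmp15, had medians of 54.5 and 29.7 TPM, and 18 of 27 high-score embryos lay above every low-score embryo. Its difference of 0.81 ± 0.25 (SE) missed the threshold (adjusted p = 0.0538). Without plate 1 no gene of this group passed, and the median difference was 0.66.

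In the Obox family, 2 of 4 tested genes passed as higher, against 2.82% of all genes tested. Obox1 had medians of 29.5 and 7.77 TPM (2.04 ± 0.31, SE, adjusted p = 1.58e-05), and Obox2 of 18 and 5.94 TPM (1.42 ± 0.35, SE, adjusted p = 0.015). Obox3 differed by 1.14 ± 0.46 (SE, adjusted p = 0.14). Obox6 behaved otherwise: it was abundant, with medians of 2198 TPM in high-score and 2932 TPM in low-score embryos, and its difference of -0.15 ± 0.14 (SE) did not pass (adjusted p = 0.607). Obox6 is also the member that was higher in morulae (620 TPM) than in 2-cell embryos (173 TPM). Without plate 1, Obox2 (1.33) did not pass.

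The subcortical maternal complex is a protein assembly under the membrane of the oocyte and early blastomeres. Of its 10 tested genes, 10 had positive differences, against 6164 of all 9825 tested. Against 2.82% of all genes tested, 4 passed as higher. Besides Zbed3, these were Ooep, a core subunit (medians 22.7 and 3.63 TPM; 1.86 ± 0.41, SE, adjusted p = 0.00493), Nlrp4f (medians 22.5 and 6.56 TPM; 1.54 ± 0.23, SE, adjusted p = 1.22e-05) and Nlrp9c (medians 7.02 and 3.27 TPM; 0.94 ± 0.25, SE, adjusted p = 0.0216). The summed level of the complex was 452 ± 128 TPM (SD, n = 27) in high-score and 235 ± 92.5 TPM (SD, n = 27) in low-score embryos. Without Zbed3 it was 299 ± 94.8 TPM (SD, n = 27) and 208 ± 91.7 TPM (SD, n = 27). Ooep and Nlrp9c (0.90) did not pass without plate 1.

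Of 32 tested genes of maternal mRNA translation and decay, 5 passed, all higher, against 2.82% of all genes tested. The median difference of the 32 was 0.34, against 0.11 over all genes tested. Zar1, an oocyte RNA-binding factor, had medians of 22.1 and 4.18 TPM (2.04 ± 0.39, SE, adjusted p = 0.000665). Pabpn1l, a poly(A)-binding protein of the oocyte that acts with Btg4, was at a median of 6.62 TPM in high-score embryos and listed at 0 in 17 of 27 low-score embryos (1.61 ± 0.42, SE, adjusted p = 0.0216). Cpeb1, which directs cytoplasmic polyadenylation, differed by 1.03, the poly(A)-binding Pabpc1l by 1.10 and the translational repressor Eif4enif1 by 0.65. Most of the list, which includes the CCR4-NOT subunits, did not pass. Without plate 1 no member passed, and the median difference was 0.38.

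Oocyte chromatin and reprogramming genes gave 6 higher of 15 tested, against 2.82% of all genes tested, with a median of 0.30. Uhrf1, the partner of the maintenance DNA methyltransferase, had medians of 30.5 and 15.9 TPM (0.99 ± 0.21, SE, adjusted p = 0.00221). Zfp57, which protects imprinted methylation, had medians of 107 and 54.9 TPM (0.86 ± 0.20, SE, adjusted p = 0.00739). Dnmt1 itself (0.67), the oxidase Tet3 (0.65) and the histone chaperone Npm2 (0.61) passed with smaller differences. Without plate 1, 2 genes of this group passed. Summed TPM of the list was 12245 in high-score and 12125 in low-score embryos, so the passing genes are minor parts of its total.

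Against 2.82% and 0.499% of all genes tested, 5 of 20 tested genes of meiosis and the oocyte cell cycle were higher and 0 lower. Spin1, a meiotic spindle protein and histone reader, was the most abundant of them, at 70.4 to 364 TPM with a median of 151 in high-score and at 41.9 to 124 TPM with a median of 76 in low-score embryos. Its difference was 1.10 ± 0.15 (SE, adjusted p = 1.24e-06), and 19 high-score embryos lay above every low-score embryo. Ccno (1.89), the CDK1-inhibiting oocyte kinase Wee2 (1.67), the secreted protease Plat (1.66) and Mos (1.57), the kinase that holds the egg in metaphase, also passed. Without plate 1, Plat (1.33) and Mos failed, and 3 genes of the list passed.

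In the list of other oocyte transcripts, 19 of 31 tested were higher, against 2.82% of all genes tested, with a median difference of 1.26. The list was written with results of these data known, so this share only describes its members. Tcl1, a coactivator of AKT, was at 34 to 278 TPM with a median of 95.1 in high-score and 10.8 to 75.4 TPM with a median of 33.3 in low-score embryos (1.64 ± 0.21, SE, adjusted p = 3.71e-07). Kpna7, an oocyte importin, was listed at 0 in 18 of 27 low-score embryos and had a median of 5.43 TPM in high-score embryos (1.92 ± 0.25, SE, adjusted p = 6.74e-07). Tcl1b, Oog and Nlrp4 genes in this list belong to families of close copies, so their separate levels are uncertain. Without plate 1, 8 of its genes passed with a median of 1.34.

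Genes of the 2-cell burst and the MERVL retroviral program gave 4 higher and 1 lower of 30 tested, with a median of 0.63. Over all genes tested the shares were 2.82% higher and 0.499% lower. Tcstv1 had a median of 3.92 TPM in high-score embryos and of 0 in low-score embryos (1.65 ± 0.37, SE, adjusted p = 0.00515). It went in that direction on 4 of 7 plates, and its highest value, 134 TPM, was in the embryo with the fewest genes. Usp17lb, Gm8300 (1.65) and Spz1 (1.41) were also higher, and Calcoco2, an autophagy receptor that averaged 3005 TPM in morulae, was lower at 908 against 1261 TPM on average (-0.54 ± 0.15, SE, adjusted p = 0.0287). Without the embryo that had the fewest genes, Usp17lb (1.78), Spz1 (1.16) and Calcoco2 (-0.46) did not pass, and without plate 1 none of the group did.

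**Figure D3:**
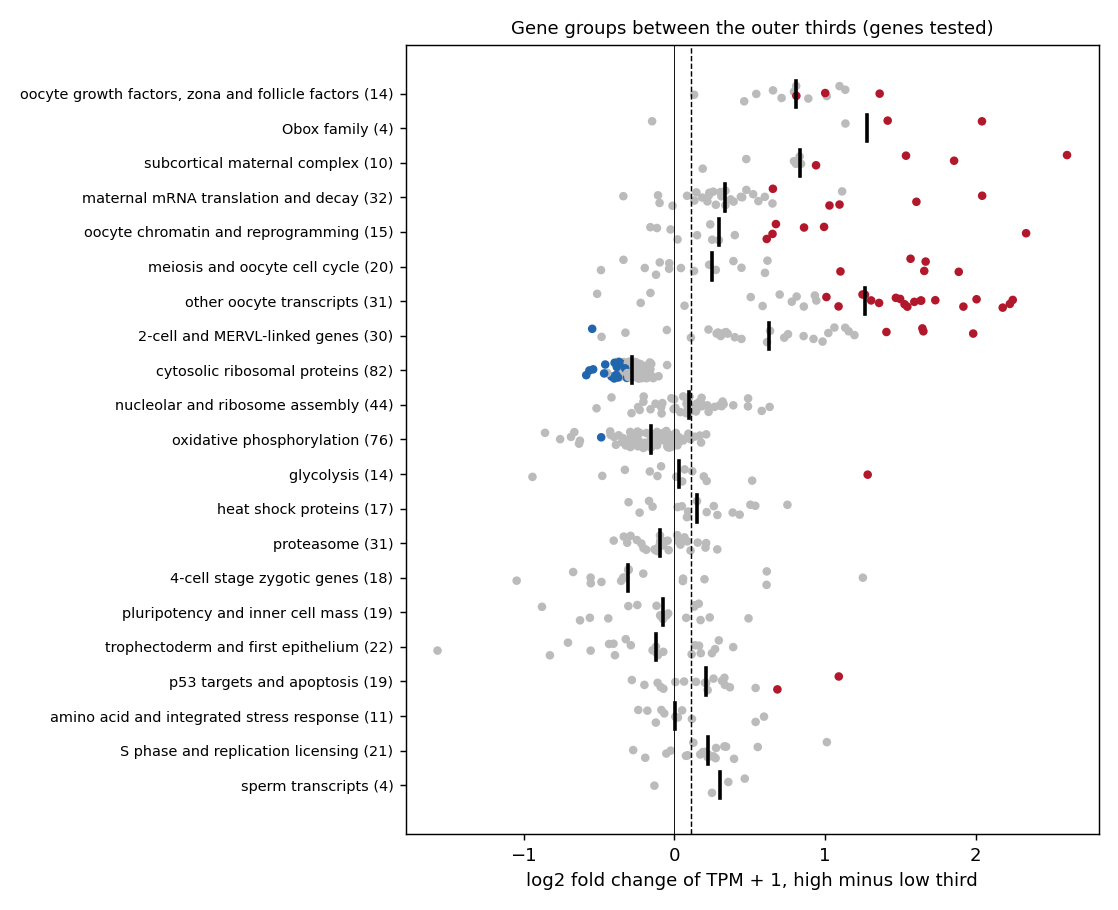
Log2 fold change of TPM + 1 between high-score and low-score embryos for each tested gene of 21 gene groups (number tested in brackets). Red genes passed as higher, blue as lower, grey did not pass; the short black line is the group's median and the dashed line the median of all 9825 genes. The medians of the maternal groups lie to the right of the dashed line, with single members on either side, and 82 of 82 ribosomal protein genes lie to the left of 0.

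The genes that were lower in high-score embryos were mostly ones that the later embryo expresses more. Ribosomal protein genes of the cytosol had the clearest shift: 82 of 82 differences were negative with a median of -0.28, against 3661 negative of all 9825 tested. At an unadjusted p under 0.05, 67 were lower, against 471 of all 9825 tested. As lower, 16 genes passed, against 0.499% of all genes tested. Rpl36, a large-subunit protein, was at 262 to 1106 TPM with a median of 787 in high-score and at 554 to 2152 TPM with a median of 1070 in low-score embryos. Its difference was -0.58 ± 0.12 (SE, adjusted p = 0.00221), and 24 of 27 high-score embryos lay below the low-score median. Rps12 (-0.56) and Rpl12 (-0.54) also passed. Summed over the list, these genes took 112272 ± 21171 TPM (SD, n = 27) in high-score and 137958 ± 35690 TPM (SD, n = 27) in low-score embryos. The number that passed depended on the fit: 24 with genes detected as covariate (median -0.28), 4 after quantile normalization (median -0.17) and 1 with oocyte donor in place of plate (median -0.19). It was 7 without the embryo with the fewest genes (median -0.26) and 0 without plate 1 (median -0.32). Ribosomal protein genes have many pseudogene copies, so their single levels are uncertain.

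Other lower genes included Ly6a, a surface antigen, which had medians of 28.4 and 59 TPM (-1.99 ± 0.48, SE, adjusted p = 0.013). Gnb2l1, the ribosome-bound scaffold RACK1, had medians of 761 and 1141 TPM (-0.58 ± 0.13, SE, adjusted p = 0.00446). Gpx4, which reduces lipid peroxides, had medians of 291 and 420 TPM, and Wdr83os of 34.3 and 66.2 TPM. Dnph1, Tlcd1, Rpp25l, Ddah1, Gtpbp8, Hmga2 and Rps15a-ps6 complete the 12 with the largest decreases. Without the embryo with the fewest genes, Dnph1 (-1.18), Rpp25l (-1.06), Ddah1 (-1.03) and Hmga2 (-0.78) no longer passed, and without plate 1 only Ly6a (-2.65) and Gnb2l1 (-0.72) of the 12 did.

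Several programs of the new embryo did not pass between the groups. In limma none of 18 tested genes typical of zygotic expression at the 4-cell stage passed, with a median of -0.31 (3 higher and 6 lower at unadjusted p under 0.05). With genes detected as covariate, 2 of them were higher and 4 lower. Without the embryo with the fewest genes the medians of this group and the next 2 moved to -0.08, 0.02 and -0.03. Among the 4-cell stage genes averaging 5 TPM or more, the smallest p belonged to B020004C17Rik (1.25, adjusted p = 0.0518), Nt5c (-1.05, adjusted p = 0.0556) and Dppa5a (-0.35, adjusted p = 0.0558). None of 19 pluripotency genes passed (median -0.07, 3 lower at unadjusted p under 0.05), with Pou5f1, the gene for OCT4, at medians of 175 and 318 TPM (-0.88 ± 0.34, SE, adjusted p = 0.12). Pou5f1 differed by -0.45 without the embryo with the fewest genes, and by -0.11 in Control embryos alone. None of 22 trophectoderm and epithelial genes passed (median -0.12, 3 lower at unadjusted p under 0.05). Proteasome (31 tested), nucleolar (44), heat shock (17), S phase (21) and stress response (11) genes gave 0 calls each in limma, with medians from -0.09 to 0.22. At unadjusted p under 0.05, proteasome genes gave 1 higher and 4 lower, nucleolar genes 9 and 1, heat shock genes 2 and 2, S phase genes 4 and 0, and stress response genes 1 and 0. Over all 9825 genes tested, the counts at that p were 1522 higher and 471 lower. With genes detected as covariate, 2 nucleolar genes passed as higher. In that fit 1 proteasome, 1 pluripotency and 2 trophectoderm and epithelial genes passed as lower, against 482 higher and 210 lower over all genes tested. Of 76 oxidative phosphorylation genes only Ndufs7 passed (-0.49, adjusted p = 0.0477). It did not pass without the embryo with the fewest genes (-0.46) or without plate 1 (-0.58). Still, 60 of the 76 differences were negative, with a median of -0.15 against 0.11 over all genes tested. At unadjusted p under 0.05, 0 of them were higher and 13 lower. After quantile normalization 3 passed as lower, and with genes detected as covariate 4 did. In glycolysis Pkm, pyruvate kinase, was the single call of 14, with medians of 41.1 and 21.1 TPM (1.28 ± 0.27, SE, adjusted p = 0.00244). Among 19 p53 and apoptosis genes, Casp9, an initiator caspase, was higher by 1.09 and Mdm2, the ubiquitin ligase of p53, by 0.68; Mdm2 failed without the embryo with the fewest genes (0.61), and both failed without plate 1 (1.08 and 0.98).

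Embryos that the ranking did not use gave the course of these genes across stages, as shares of each embryo's RNA. Between 80 2-cell embryos and 73 morulae, 4598 of 10882 genes fell (42.3%) and 3332 rose (30.6%) at an adjusted p under 0.05 and a log2 change of at least 1. Of the 277 genes higher in high-score 4-cell embryos, 211 fell over that interval (76.2%) and 13 rose. Of the 49 lower genes, 46 rose (93.9%) and 1 fell. Over all 9825 genes tested between the groups, 37.6% fell and 32.7% rose. Among 226 higher genes that belong to no list, 161 fell (71.2%). Zbed3 stood at 18031 TPM on average in 2-cell embryos, 153 in high-score and 27.1 in low-score 4-cell embryos, and 5.75 in morulae. Rpl36 ran the other way, at 27.7, 751, 1129 and 1776 TPM. High-score embryos thus lay on the 2-cell side and low-score embryos on the morula side for both genes. Tsga8 was an exception among the leading genes, at 11.9 TPM in 2-cell embryos and 48.2 TPM in high-score embryos.

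**Figure D4:**
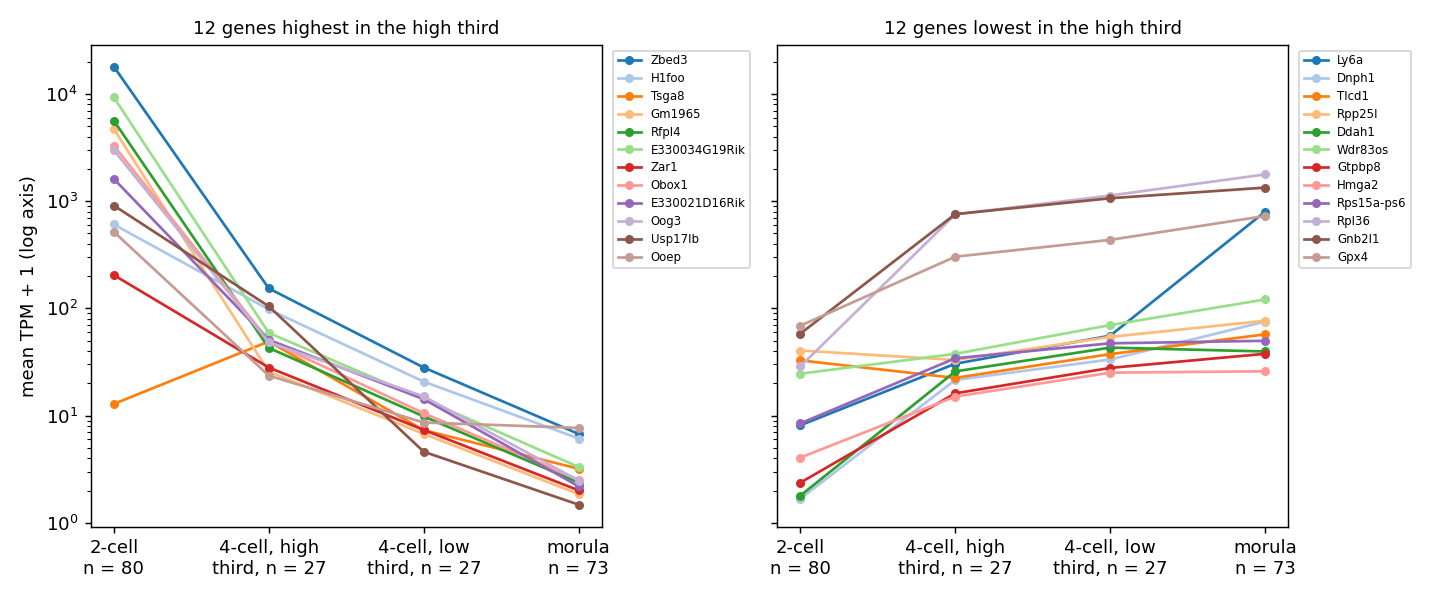
Mean TPM + 1 (log axis) in 80 2-cell embryos, 27 high-score and 27 low-score 4-cell embryos and 73 morulae for the 12 genes with the largest increases (left) and the 12 with the largest decreases (right). On the left every gene but Tsga8 declines from the 2-cell stage, and Zbed3 goes from 18031 to 5.75 TPM; on the right most genes climb.

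Embryos of both paternal diets had similar ranges of scores, and their means did not pass the test. The mean score was 0.016 ± 0.83 (SD, n = 40) in Low Protein and -0.015 ± 0.89 (SD, n = 42) in Control embryos, a difference of 0.031 log2 units (two-sided permutation test within plate, p = 0.878). The split by score was also fitted in the embryos of each diet alone. In Control embryos, 39 genes were higher (0.393%) and 0 were lower (745 higher and 87 lower at unadjusted p under 0.05). In Low Protein embryos, Zbed3 alone passed as higher (0.0102%, adjusted p = 0.00278) and 0 genes as lower (585 higher and 230 lower at unadjusted p under 0.05). The 2 fits use different embryos. Of the 39 genes called in Control embryos, 37 were positive in Low Protein embryos, where 62.8% of all genes tested were positive, and 29 of them (74.4%) were positive at an unadjusted p under 0.05, against 5.995% of all genes tested there. Rassf5 (-0.32) and Ergic1 (-0.13) were the exceptions in sign. Zbed3 differed by 2.47 in Control and 2.92 in Low Protein embryos, Spin1 by 1.06 and 1.19, and Tcl1 by 1.56 and 1.96. The test of whether the difference itself depends on diet called 0 of 9825 genes (342 at unadjusted p under 0.05, smallest adjusted p = 0.522), which does not show that the diets act alike.

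**Figure D5:**
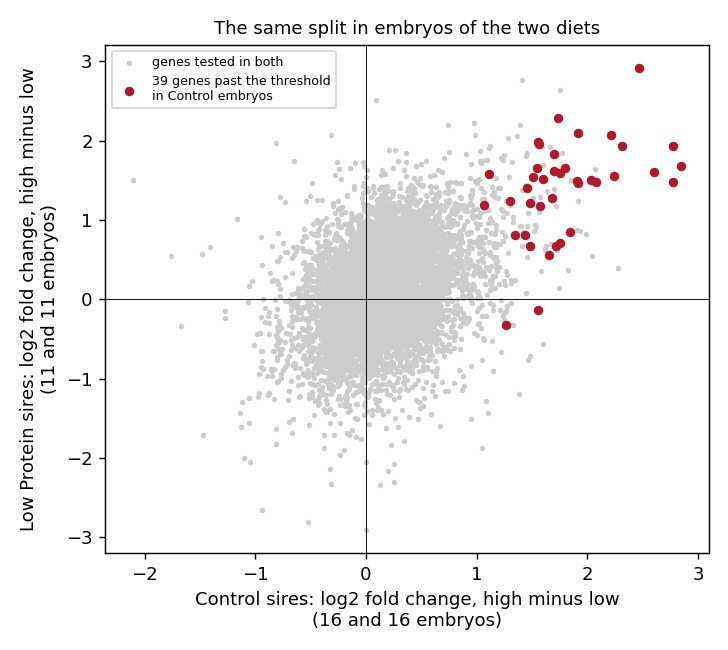
Log2 fold change between high-score and low-score embryos in Control embryos (horizontal, 16 and 16) and Low Protein embryos (vertical, 11 and 11). Grey points are genes tested in both; red points are the 39 genes past the threshold in Control embryos, 37 of which lie above 0 on the vertical axis.

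Library quality and other cell types were set beside these results. High-score embryos had 8813 ± 899 genes at 1 TPM or more (SD, n = 27) and low-score embryos 8647 ± 538 (SD, n = 27), a difference that did not pass (two-sided permutation test within plate, p = 0.436). Without the 3 embryos under 7000 genes, the groups had 9036 and 8714 genes (two-sided permutation test, p = 8.0e-05), so high-score embryos then had more genes detected. With the number of genes detected as covariate, 482 genes were higher and 210 lower. The ribosomal RNA transcript Rn45s took 6.75% of TPM on average in both groups (p = 0.999, two-sided permutation test). A single library stood apart, the Low Protein replicate 26 embryo on plate 4, with 5071 genes and Rn45s at 0.0409%. This embryo was in the high-score group and had the highest score of all 82 (1.99). It held the group's highest Bcl2l10 (258 TPM), Obox1 (447 TPM), Obox3 (330 TPM), Tcstv1 (134 TPM) and Spz1 (124 TPM). It was the highest high-score embryo for 50 of the 277 higher genes, and was lowest or tied for lowest for 24 of the 49 lower genes. It was listed at 0 for 42 of the higher and 17 of the lower genes, and for 51.6% of all genes in the table. Without it 310 genes were higher and 32 lower. Of the 4 embryos whose sire identifier carries a suffix, 3 were in the high-score group and 0 in the low-score group, and without all 4 the counts were 159 higher and 18 lower.

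Of 15 cumulus and granulosa cell markers, 2 are in the table used here, and their summed level ranged from 54.1 to 315 TPM in high-score and from 48.8 to 285 TPM in low-score embryos. Amhr2, the 1 marker tested, differed by -0.09 (adjusted p = 0.771), and by -0.0044 without the embryo with the fewest genes. Its mean was 180 TPM in high-score embryos against 15.6 in 2-cell embryos and 25.1 in morulae. The 4 sperm transcripts tested and the 2 Y-linked genes gave 0 calls in limma and 0 at unadjusted p under 0.05, with medians of 0.30 and -0.51.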

How the data were processed

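Single-embryo RNA sequencing was analysed from the authors' deposited table of TPM values. The submitters' processing notes name Bowtie and mm10. For the versions, the counting method and the annotation, nothing is given in the sources used here. The table holds no reads, so depth is unknown and no counting interval is given. TPM sums were 985115 to 998407 per embryo, and the lowest maximum of any of its 11076 genes was 5.87 TPM.

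Genes at 1 TPM or more in 25% of the 54 embryos were tested as log2(TPM + 1), a scale that understates changes of low genes, with limma 3.58.1 in R 4.3.3 (plate as covariate, trend and robust settings, Benjamini-Hochberg adjustment over all genes, 0.05). The score and the tested genes come from the same libraries, so a call says that a gene went with the score. The 2-cell to morula fit had plate and diet as covariates. Permutation tests used 100000 resamples within plate (Python 3.11.15, numpy 2.4.6, pandas 2.3.3, matplotlib 3.10.9). Transcripts and promoters were aligned with Biopython 1.88; gene positions are GENCODE vM21 on GRCm38, which is mm10.

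Named genes are the 12 largest changes per direction among calls averaging 20 TPM or more in either group, and up to 4 members per list with the smallest p that averaged 5 TPM or more; further list members that passed, and Rassf5 and Ergic1, were chosen after their values were seen. Not every gene that the rule names is printed, and a result on 1 of them is not reported here. The members, lists and tests were chosen with earlier results of these data known. The methods were tested on simulated data. Alternatives covered the pseudocount, filter, scaling, covariates, score genes, grouping and each plate left out; those on single embryos, suffixed sires and single plates were added after seeing the data.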

Additional observations from a re-analysis of the deposited data

How the results depend on the processing

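Directions held for the 12 genes with the largest increases and the 12 with the largest decreases under each alternative; the numbers of calls did not. A count is taken as moved when it changed by more than 1.5 times. Against 277 higher and 49 lower genes, the counts were 163 and 30 with a pseudocount of 0.1, 129 and 106 after quantile normalization, 144 and 12 without plate as covariate, 108 and 7 with oocyte donor in place of plate, 482 and 210 with genes detected as covariate, 592 and 203 with the score as a continuous variable, and 171 and 18 with groups cut within plate. Scores without Obox5 gave 147 and 16, without Btg4 137 and 10, and without Bcl2l10 137 and 18. Requiring a log2 change of at least 1 left 116 and 15. Without plate 1 the counts were 39 and 6, which also leaves fewer embryos, and without plate 3 they were 126 and 14. The lower count moved and the higher count stayed within that limit without plate 2 (323 and 74), plate 4 (194 and 9), plate 7 (206 and 30), the 3 embryos under 7000 genes (250 and 29), the embryo with the fewest genes (310 and 32), or with array weights (267 and 20). Without plate 5 the counts were 172 and 39, and the higher count moved. Without suffixed sires the counts were 159 and 18, and without these and the embryo with the fewest genes 142 and 7. Plate 1 alone gave 46 and 1, and plate 5 alone 0 and 1. Genes detected differed by 321 between groups without the embryos under 7000 genes. For these changes the cause was not tested. Of the 12 leading higher genes, 8 to 12 passed under each alternative except plate 5 alone (0); of the 12 leading lower genes 2 to 12 passed, and 0 in either plate alone. Single embryos could not be matched in pairs, because the labels give no replicate numbers that pair embryos. The fit with oocyte donor as a term (108 higher and 7 lower) is the comparison within donors. Unknown depth limits what is said of genes of a few TPM, where a listed 0 may be a failed detection.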
